A study of Mus musculus with 6 samples.

Results

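Calpastatin and the calpains were examined in ATAC-seq peak lists of mouse osteoblasts. The 8 genes were taken from a list of names (*Cast*, *Capn1*, *Capn2*, *Capns1*, *Capn5*, *Capn7*, *Capn10* and *Capn3*) out of 49943 genes of the RefSeq annotation. Peaks of the 6 libraries that shared 1 bp or more were merged into 89410 regions, and 61 of these lay in a member's gene span or within 20 kb of it. The 61 regions are the data described here, and 57 of them lay at the 7 members that are made in most tissues, with 4 at *Capn3*, the tissue-restricted member.

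ATAC-seq marks open chromatin by the places where the transposase Tn5 inserts into DNA. The libraries came from an osteoblast line whose *Fam20c* alleles are floxed (OB Fam20c f/f, labelled as control) and from *Fam20c* knockout cells (OB Fam20c KO), with 3 libraries of 50000 nuclei each per group. The KO cells were made by infection with a Cre recombinase lentivirus, so that loss of *Fam20c* and the infection cannot be told apart. Both groups were grown in αMEM with fetal bovine serum and antibiotics, and neither the labels nor the methods name separate clones or separate cultures for the replicates, so that p-values measure the spread between these libraries, which may be technical. FAM20C is the Golgi kinase that phosphorylates secreted proteins of bone and teeth.

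Calpains are calcium-dependent cysteine proteases that cut a limited number of sites in their substrates, many of them proteins of the cytoskeleton and of cell adhesions. The classical enzymes, calpain 1 and calpain 2, each pair a catalytic subunit (*Capn1* or *Capn2*) with the common small regulatory subunit (*Capns1*), and calpastatin (*Cast*) is their endogenous inhibitor. *Capn5*, *Capn7* and *Capn10* encode widely made catalytic relatives that differ from the classical enzymes in domain structure. *Capn3* encodes the calpain of skeletal muscle.

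The starts of these genes are shown first, since they carry the contrast between the widely made members and *Capn3*. Each sequence is the RefSeq GRCm38.p6 window of 250 bases before to 50 bases after a start, read 5′ to 3′ on the gene's strand. Capitals mark matches on either strand to TGACTCA (AP-1), CAGCTG and CATCTG (E-box), AACCACA (Runx), CATTCC (TEAD), GGGCGG (GC box) and CCAAT. The first 3 windows are *Cast* starts that lay under a region with a peak in all 6 libraries, the 4th is the *Capn2* start, whose region differed most between the groups among the starts, and the last 2 are the *Capn3* starts, which had no peak in any library.
Cast, outermost start, chr13:74808711-74809010, minus strand: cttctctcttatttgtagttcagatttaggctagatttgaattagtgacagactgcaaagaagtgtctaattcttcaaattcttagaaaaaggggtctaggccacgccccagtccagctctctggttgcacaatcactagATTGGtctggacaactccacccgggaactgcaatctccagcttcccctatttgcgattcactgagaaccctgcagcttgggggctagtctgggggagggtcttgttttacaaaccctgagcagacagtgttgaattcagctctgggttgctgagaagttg
Cast, second outer start, chr13:74807911-74808210, minus strand: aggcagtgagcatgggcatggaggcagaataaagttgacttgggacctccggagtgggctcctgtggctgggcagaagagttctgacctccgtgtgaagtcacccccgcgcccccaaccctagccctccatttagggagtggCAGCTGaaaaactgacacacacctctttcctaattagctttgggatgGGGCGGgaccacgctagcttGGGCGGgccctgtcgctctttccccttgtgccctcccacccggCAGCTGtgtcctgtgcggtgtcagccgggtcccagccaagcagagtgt
Cast, internal start, chr13:74770687-74770986, minus strand: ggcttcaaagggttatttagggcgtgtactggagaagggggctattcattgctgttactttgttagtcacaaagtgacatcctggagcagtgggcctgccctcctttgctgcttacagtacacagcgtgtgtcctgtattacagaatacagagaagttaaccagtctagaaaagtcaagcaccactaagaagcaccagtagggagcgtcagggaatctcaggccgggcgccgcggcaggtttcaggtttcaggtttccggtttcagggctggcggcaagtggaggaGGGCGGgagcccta
Capn2, chr1:182517561-182517860, minus strand: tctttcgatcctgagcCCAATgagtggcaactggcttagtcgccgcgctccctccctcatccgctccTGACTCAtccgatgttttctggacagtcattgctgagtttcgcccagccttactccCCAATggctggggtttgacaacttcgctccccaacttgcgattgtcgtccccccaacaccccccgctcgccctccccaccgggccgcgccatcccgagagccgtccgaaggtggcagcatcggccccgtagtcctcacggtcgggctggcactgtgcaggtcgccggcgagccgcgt
Capn3, upstream start, chr2:120463343-120463642, plus strand: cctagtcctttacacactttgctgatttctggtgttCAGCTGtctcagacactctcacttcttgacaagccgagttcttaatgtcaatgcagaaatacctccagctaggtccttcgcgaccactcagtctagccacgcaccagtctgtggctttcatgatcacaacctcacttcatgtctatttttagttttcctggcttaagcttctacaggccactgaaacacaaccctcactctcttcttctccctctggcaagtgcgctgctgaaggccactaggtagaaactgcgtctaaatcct
Capn3, downstream start, chr2:120476659-120476958, plus strand: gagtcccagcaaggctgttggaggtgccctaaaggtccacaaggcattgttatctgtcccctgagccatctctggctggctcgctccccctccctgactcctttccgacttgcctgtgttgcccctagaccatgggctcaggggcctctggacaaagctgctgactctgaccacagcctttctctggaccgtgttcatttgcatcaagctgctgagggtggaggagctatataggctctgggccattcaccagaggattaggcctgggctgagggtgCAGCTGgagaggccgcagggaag

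These windows differ in their CpG dinucleotides. The *Capn2* window held 27, and the 3 *Cast* windows held 3, 11 and 10 in the order printed. The *Capn3* windows held 6 and 4. Over the 21263 protein-coding starts in the RefSeq table, those under a region with a peak in all 6 libraries held a median of 23 (10708 starts) and those with no peak in any library a median of 4 (9500 starts). The outermost *Cast* start thus lay under a region with a peak in all 6 libraries, with fewer CpG than the median of starts without a peak. That region, chr13:74807140-74808966, also covers the second outer start, which held 11 CpG. A single peak of each library spans both, so the peak does not describe the outermost start alone.

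The motifs were unevenly spread over the members' windows. The *Capn2* window held 1 AP-1 match, against 5.20% of all 32851 windows with at least 1. The second outer *Cast* start held 2 CAGCTG matches and 2 GC boxes, motifs that 16.3% and 35.7% of all windows held. Among protein-coding starts under a region with a peak in all 6 libraries, the shares were 3.46% for AP-1, 14.3% for CAGCTG and 69.9% for GC boxes. Each *Capn3* window held 1 CAGCTG match and none of the other motifs. None of the member windows held CATCTG or AACCACA, which 17.2% and 5.27% of all windows held. Of starts with a peak in all 6, 9.85% and 3.06% held them, and of starts without a peak 19.8% and 6.43%. A match describes letters only.

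The libraries were not equally rich. The f/f lists held 64033, 62781 and 74797 peaks and the KO lists 64141, 64582 and 32958, so that KO replicate 3 had the shortest list. The lists give no read counts per region. The paper's supplement lists more clean and more uniquely mapped reads for KO replicate 3 than for f/f replicate 1. It gives KO replicate 3 the lowest unique mapping rate of the 6 libraries. What part depth or library quality has in the short list was not tested. A missing peak means only that the site did not pass the authors' threshold of q = 0.05 in that library. Of 8 osteoblast markers, 6 had a peak at the start or span end in each library apart from KO replicate 3, with 5. *Ibsp* and *Bglap*, markers of mature osteoblasts, had none in any library. Markers of epithelium were at 0 of 6 in every library, those of skeletal muscle at 0 or 1 of 6, of blood and of fat at 1 of 6, and of cartilage at 1 or 2 of 6. The start of *Fam20c* itself lay under a region with a peak in all 6 libraries, with a fold over the local background of 10.3, 8.51 and 8.23 in f/f and 11.6, 11.2 and 9.06 in KO. Its standing among the shared regions (its rank by −log10 q from 0 to 100) was 8.59 points higher in KO (limma, adjusted p = 0.0134), and a peak at the start does not test whether the floxed part is deleted.

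Of the 61 regions of calpastatin and the calpains, 29 had a peak in all 6 libraries (47.5%, against 33.4% of all regions). Another 12 lacked a peak in KO replicate 3 alone (19.7%, against 19.2% of all regions), and 9 had a peak in 1 library alone (14.8%, against 19.8%). The members had 49, 47 and 56 regions with a peak in the f/f libraries and 47, 45 and 29 in the KO libraries. The means were 50.7 ± 4.73 in f/f and 40.3 ± 9.87 in KO (SD, n = 3), and an exact two-sided permutation test of the difference gave p = 0.2, where 0.1 is the smallest that 3 against 3 allows. Without KO replicate 3 the difference went from -10.3 to -4.67 regions.

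The starts of the widely made members were accessible in both groups. A start lay under a region with a peak in all 6 libraries at *Cast* (3 of 4 listed starts), *Capn1* (2 of 2), *Capn2*, *Capns1*, *Capn7* and *Capn10* (1 of 1 each). At *Capn5*, for which no start was listed, the region over the upper end of the span had a peak in all 6. By comparison, 50.4% of all protein-coding starts lay under such a region. The *Cast* start without a peak, at chr13:74734261, is the one farthest into the gene and its window held 2 CpG.

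The starts of most tissue-restricted calpains had no peak. Neither *Capn3* start lay under a peak in any library, and the nearest region, chr2:120478731-120479439, began 1822 bp past the downstream start. That region was listed with a fold of 13.7, 8.71 and 12.9 in f/f and of 11.5 and 12.95 in KO replicates 1 and 2, with no peak in KO replicate 3. Among the other restricted genes, *Capn6* had a region with a peak in all 6 libraries over its start, and *Capn8*, *Capn9*, *Capn11*, *Capn12*, *Capn13* and *Capns2* had no peak over theirs. *Capn15*, another widely made calpain, had such a region over 2 of 3 starts. In all, 8 of 8 widely made genes, calpastatin included, and 1 of 8 restricted genes had a start or, for *Capn5*, a span end under a region with a peak in all 6. Span ends were counted only for *Capn5*. An end of the span of *Capn9*, a restricted gene with a listed start, also lay under such a region and was not counted.

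The starts of the classes also differed in CpG number. The 13 listed starts of the widely made genes held 2 to 27 CpG with a median of 14, and 11 of them lay under a region with a peak in all 6. The 9 listed starts of the restricted genes held 1 to 9 with a median of 4, and the 1 with such a region was that of *Capn6*, with 5. CpG number and class moved together here, and their separate parts in the peaks were not tested.

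**Figure D1:**
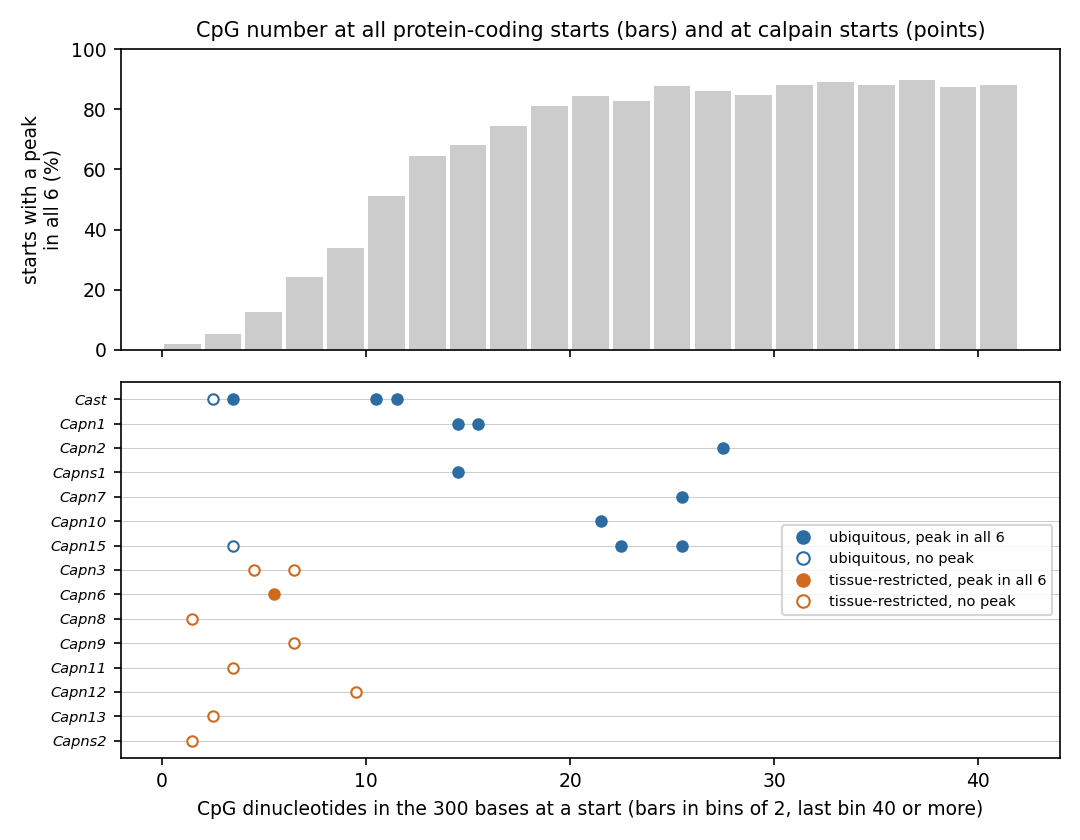
Upper panel, the share of protein-coding starts under a region with a peak in all 6 libraries (%) against the number of CpG dinucleotides in the 300 bases at the start. Lower panel, the starts of calpastatin and the calpains by CpG number, blue for widely made and orange for tissue-restricted genes, filled where a region with a peak in all 6 covered the start. The 9 restricted starts lie between 1 and 9 CpG and the widely made ones between 2 and 27.

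Over the whole windows, with the start regions counted in, the classes were less distinct than at the starts. Of the 61 regions at the widely made genes, *Capn15* included, 52.5% had a peak in all 6 libraries, and of the 41 at the 8 restricted genes 26.8%, against 33.4% of all regions. *Capn5* had the most regions, 21, or 2.16 per 10 kb of the window, and *Cast* the fewest per length, with 4 in the longest span or 0.256 per 10 kb. The *Capn5* window also takes in parts of *Myo7a* and *B3gnt6*, with 4 and 2 of its regions, so a region there need not belong to *Capn5*.

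Presence differed between the groups at single regions of 3 genes. A region counted as f/f-only where it had a peak in 3 of 3 f/f and 0 of 3 KO libraries. This held for 3 of the 61 member regions (4.92%), near the share of all regions (3.75%), and 0 were KO-only (0.179% of all regions). At least 1 f/f-only region was found at 3 of the 8 genes (*Cast*, *Capn2* and *Capn7*), against 16.3% of protein-coding genes with a region within 20 kb.

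In *Cast* the f/f-only region was chr13:74772228-74772652, inside the gene and 1492 bp before the internal start. Its fold was 4.50, 3.64 and 3.26 in the f/f libraries, and none of the KO libraries listed a peak there. In each f/f list it stood near the middle by −log10 q, at 51.6, 47.3 and 42.5 on a scale of 0 (lowest peak of the list) to 100 (highest).

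In *Capn2* the f/f-only region was chr1:182511816-182512190, inside the gene, 5420 bp past the start. Its fold was 3.94, 3.34 and 3.16, and its standing in the f/f lists 36.7, 39.7 and 35.0. None of the KO libraries listed a peak there.

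The *Capn7* window held the third, chr14:31323610-31324728, 11910 bp before the start and inside *Dnah1*, which encodes a dynein of cilia and flagella. Its fold was 7.47, 4.28 and 5.32, and its standing 43.0, 27.6 and 34.8. The f/f-only regions of *Cast*, *Capn2* and *Capn7* were thus peaks of the lower or middle part of their lists.

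**Figure D2:**
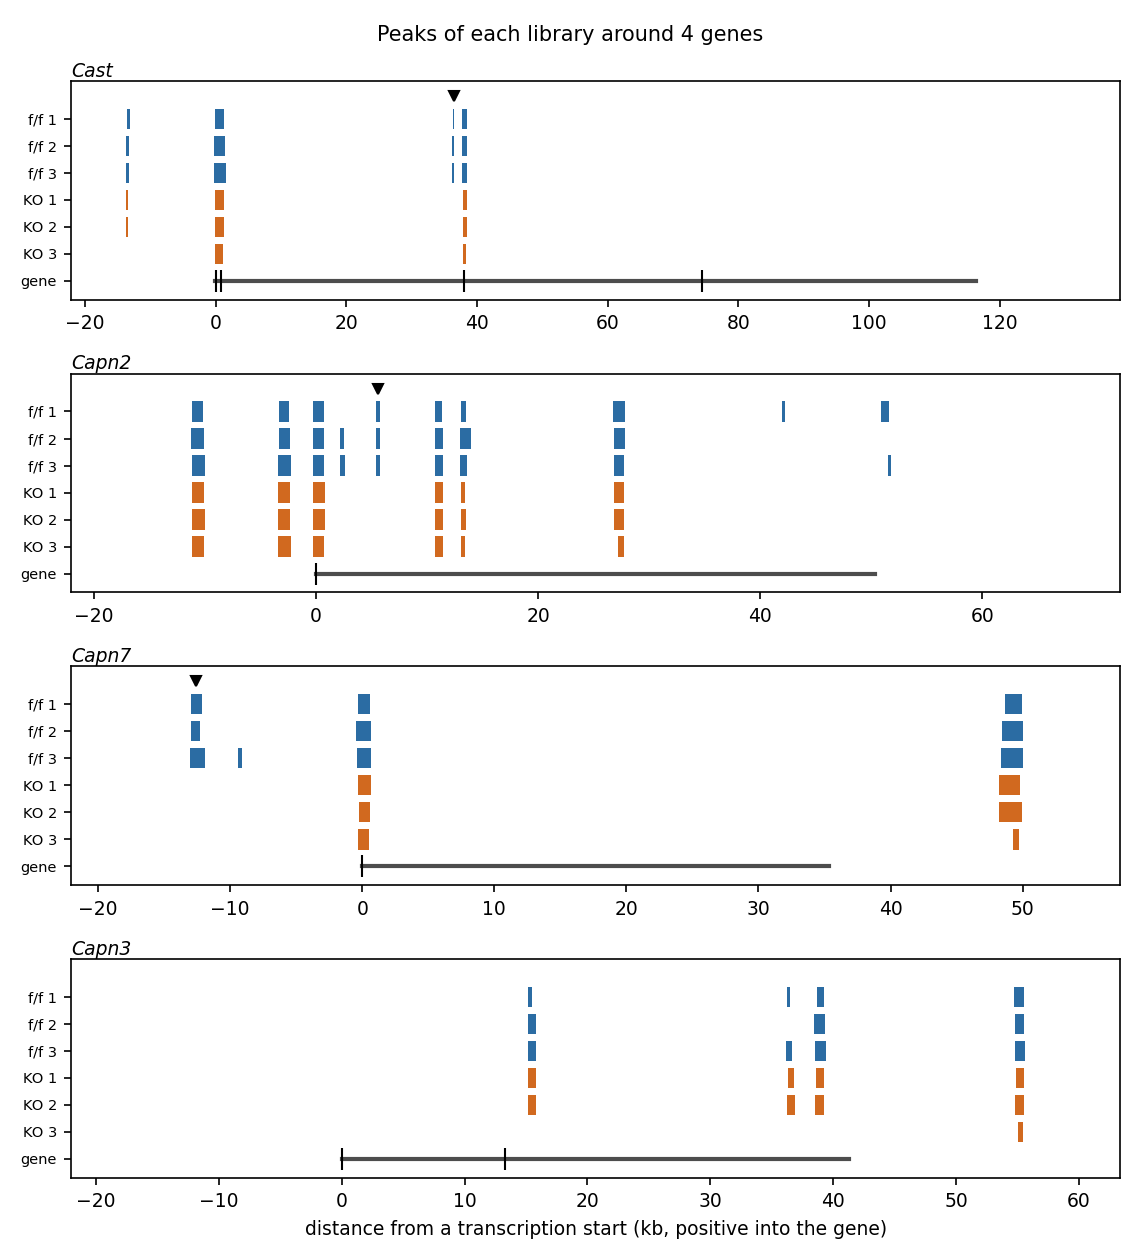
Peaks of each library (f/f blue, KO orange, 1 row per library) around *Cast*, *Capn2*, *Capn7* and *Capn3* by distance from the outermost start in kb, positive into the gene. The grey bar is the gene span, ticks are listed starts and triangles mark the f/f-only regions. The starts of *Cast*, *Capn2* and *Capn7* at 0 carry a peak in all 6 libraries, and the *Capn3* starts carry none.

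Counted per gene, calpastatin had 4, 4 and 4 regions with a peak in the f/f libraries and 3, 3 and 2 in the KO libraries. *Capn2* had 9, 8 and 9 in f/f and 6, 6 and 6 in KO, and *Capn7* 3, 3 and 4 in f/f and 2, 2 and 2 in KO. In these 3 genes every f/f library had more than every KO library (exact two-sided permutation test, p = 0.1 for each, the smallest possible). That pattern was shown by 9.94% of protein-coding genes with a region within 20 kb, and its reverse by 0.121%. The counts include the f/f-only region of each gene. At *Cast* and *Capn7* the groups overlap without that region, so the count and its p restate it. For *Capn2* the difference of -2.67 regions was the same without KO replicate 3, and for *Cast* it went from -1.33 to -1. With every list shortened to its 32958 highest peaks by −log10 q the differences were -0.667 for *Capn2* and for *Cast* and 0 for *Capn7*, with peaks of −log10 q of 5 or more that of *Capn2* was -1.33, and with an extension of 3 kb that of *Capn7* was 0.

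At the other 5 genes the groups overlapped. *Capn1* had 5, 6 and 6 regions in f/f and 5, 5 and 3 in KO. *Capns1* had 7, 7 and 8 in f/f and 7, 7 and 4 in KO. *Capn5* had 15, 13 and 18 in f/f and 18, 16 and 10 in KO.

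The last pair of genes had few regions. *Capn10* had 2, 3 and 3 in f/f and 2, 2 and 1 in KO, and *Capn3* 4, 3 and 4 in f/f and 4, 4 and 1 in KO. KO replicate 3 was the lowest of the 6 libraries at each of these 5 genes. The exact p was 0.3 for *Capn1* and *Capn10*, 0.6 for *Capns1* and 1 for *Capn5* and *Capn3*.

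**Figure D3:**
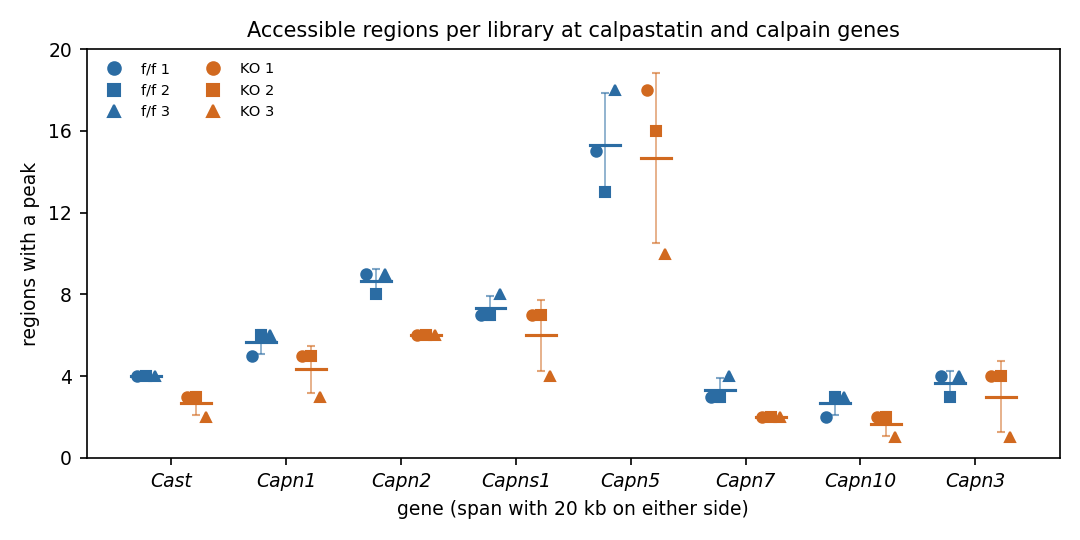
Number of regions with a peak within 20 kb of each gene in each library, f/f in blue and KO in orange, with the group mean and SD (n = 3). The groups do not overlap at *Cast*, *Capn2* and *Capn7*, and KO replicate 3 is the lowest point at the other 5 genes.

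For the 29 member regions shared by the 6 libraries the heights were compared. Each region was given a standing from 0 to 100, its rank by −log10 q within a library among the 29849 regions shared by the 6 libraries, and the standings were compared by limma with Benjamini-Hochberg adjustment over all 29849. Of the 29, 2 were higher in KO and 4 lower at an adjusted p under 0.05, against 12.6% of all shared regions higher and 11.3% lower. The median difference of the 29, KO minus f/f, was 0.029 points (all shared regions -0.24), with 15 above and 14 below 0.

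When the same regions were ranked by fold over the local background in place of −log10 q, 0 of the 29 passed. Over all shared regions 1.39% passed on that scale. An unadjusted p under 0.05 by limma was found at 6 of the 29, against 6008 of all 29849. The direction of the difference was the same on both scales at 25 of the 29 regions and at 23737 of the 29849.

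The inhibitor was among the exceptions. The region over the internal *Cast* start, chr13:74770308-74771146, had a fold of 14.3, 11.8 and 12.8 in f/f and 18.4, 17.2 and 12.9 in KO. KO replicates 1 and 2 were above every f/f library and KO replicate 3 lay among them. By −log10 q its standing was 92.6, 88.5 and 90.8 in f/f and 88.4, 84.9 and 85.7 in KO, lower in each KO library. The difference was -4.33 points by −log10 q (SE 1.69, adjusted p = 0.094) and 11.2 points by fold (SE 3.24, adjusted p = 0.122).

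The region over the outer *Cast* starts, chr13:74807140-74808966, also had opposite signs on the 2 scales. It had a fold of 10.5, 9.16 and 9.41 in f/f and 10.9, 11.4 and 10.2 in KO. Its standing by −log10 q was 71.6, 79.7 and 75.2 in f/f and 55.8, 61.0 and 76.2 in KO, so that KO replicates 1 and 2 were below all f/f libraries and KO replicate 3 was not. The difference was -11.2 points by −log10 q (SE 5.21, adjusted p = 0.15) and 9.21 points by fold (SE 11.4, adjusted p = 0.657). Without KO replicate 3 the adjusted p by −log10 q was 0.00812. The 4th *Cast* region, chr13:74821944-74822471, lay 13184 bp before the outermost start and had a fold of 17.3, 15.4 and 17.1 in f/f and 15.1 and 15.6 in KO replicates 1 and 2. KO replicate 3 had no peak there, and among the other 5 libraries the standing differed by -15.4 points (adjusted p = 0.00538).

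By −log10 q, other regions of chromosome 13 moved with those of *Cast*. By fold the *Cast* start regions were 11.2 and 9.21 points higher in KO, unlike the chromosome's median. Over the 974 shared regions of the chromosome the median difference in standing was -9.6 points by −log10 q and -0.43 by fold, and 8.48% of its 3490 regions were f/f-only. The chromosomes of the other members had medians between -0.91 and 1.68 points and f/f-only shares between 2.62% and 4.0%. Between 70 and 75 Mb, which holds *Cast*, 12 of 146 regions were f/f-only, and what part the chromosome has in the *Cast* values was not tested.

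Of the classical catalytic subunits, *Capn2* had the largest difference at a start. Its start region, chr1:182516793-182517873, had a fold of 4.52, 4.24 and 4.60 in f/f and 6.44, 6.42 and 6.44 in KO. These were the lowest folds of any member's start region in the f/f libraries and in KO replicates 1 and 2. Its standing was 46.9, 54.9 and 55.2 in f/f and 68.3, 70.1 and 84.1 in KO, so that the groups did not overlap on either scale. The difference was 21.8 points (SE 5.08, adjusted p = 0.015), and 11.04 points without KO replicate 3, where the adjusted p was 0.0173. By fold the difference was 20.2 points (SE 10.6, limma adjusted p = 0.324). The standings by fold were 5.44, 9.16 and 6.70 in f/f and 13.6, 12.9 and 55.4 in KO, so that KO replicate 3 stood far above the other libraries.

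The *Capn2* region that stood highest by −log10 q, chr1:182527618-182528885, lay 10008 bp before the start, with a fold of 14.3, 12.7 and 13.9 in f/f and 15.6, 14.7 and 11.3 in KO. Its standing was 95.5, 96.9 and 97.0 in f/f and 92.1, 88.0 and 92.4 in KO, with no overlap. The difference was -5.59 points (SE 1.42, adjusted p = 0.022). The call was lost without f/f replicate 2, f/f replicate 3 or KO replicate 2, with adjusted p of 0.074, 0.0837 and 0.063. By fold the difference was -3.31 points (SE 4.64, adjusted p = 0.697).

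At *Capn1* the start region, chr19:6014779-6016211, had a fold of 7.35, 7.29 and 7.44 in f/f and 9.88, 9.14 and 5.79 in KO, and overlapped an unnamed gene model, *Gm10814*. Its standing differed by 4.22 points (SE 4.67, adjusted p = 0.548). The region at the far end of the gene, chr19:5988361-5989842, stood at 31.9, 30.3 and 34.5 in f/f and at 44.4, 45.1 and 50.2 in KO. It was 14.3 points higher in KO (SE 4.23, adjusted p = 0.039), a call that was lost when any single library was left out (adjusted p from 0.0654 to 0.119).

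The small subunit gene *Capns1* had its start under chr7:30193691-30196670, the widest member region. The standing there was 65.4, 65.2 and 67.0 in f/f and 72.9, 78.0 and 70.1 in KO, with no overlap, and the difference was 7.79 points (SE 3.25, adjusted p = 0.113, and 0.042 without KO replicate 3). Both called regions of the *Capns1* window lay at other genes. The region at *Cox7a1*, which encodes a subunit of cytochrome c oxidase, chr7:30183879-30184587, stood at 47.6, 48.4 and 50.1 in f/f and at 26.6, 22.2 and 15.9 in KO. It had the largest difference of all 29, -27.1 points (SE 4.38, adjusted p = 0.0035). The region at *Zfp146* and *Gm5113*, chr7:30169336-30171006, differed by -16.1 points (SE 2.03, adjusted p = 0.00122) and stood highest by −log10 q in the *Capns1* window. Without KO replicate 3 these differences were -17.6 points at *Cox7a1* and -9.96 points at *Zfp146*, with adjusted p of 0.00938 and 0.00146.

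None of the 10 shared regions in the *Capn5* window was called. The one with the largest difference, chr7:98108629-98110029 in *Myo7a*, had a difference of 13.5 points (SE 5.66, adjusted p = 0.114). The one that stood highest by −log10 q, chr7:98170579-98171924 inside *Capn5*, stood at 93.5, 97.1 and 96.1 in f/f and 95.1, 91.9 and 92.2 in KO. The region over the upper span end, chr7:98177722-98179109, differed by 0.029 points (SE 2.87, adjusted p = 0.996).

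By −log10 q, *Capn10* had the highest start of the 8 genes. By fold the mean standing of its start was 84.4 in f/f and 81.6 in KO, below the *Capn7* start with 87.2 and 93.1. Its region, chr1:92933970-92935313, stood at 98.2, 98.3 and 94.5 in f/f and 93.0, 96.3 and 96.5 in KO, a difference of -1.73 points (SE 1.43, adjusted p = 0.413). That region also overlaps the gene *9430060I03Rik*, so its height need not belong to *Capn10* alone. The *Capn7* start, chr14:31336147-31337337, stood at 87.8, 82.6 and 86.5 in f/f and 86.0, 85.8 and 86.2 in KO, and differed by 0.343 points (SE 1.82, adjusted p = 0.912). The other shared *Capn7* region, in *Sh3bp5*, had the larger difference of the pair, -0.515 points (SE 6.51).

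The 1 shared region of the *Capn3* window, chr2:120518348-120519240, lay 41439 bp past the downstream start in *Zfp106*, a zinc finger gene. It stood at 66.6, 59.9 and 57.3 in f/f and at 37.2, 41.0 and 43.3 in KO, with no overlap. The difference was -20.7 points (SE 4.56, adjusted p = 0.012), and it too lies outside the calpain gene. Of the 6 called regions, 3 lay within or upstream of *Capn1* and *Capn2*, and 3 at neighbouring genes of *Capns1* and *Capn3*.

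**Figure D4:**
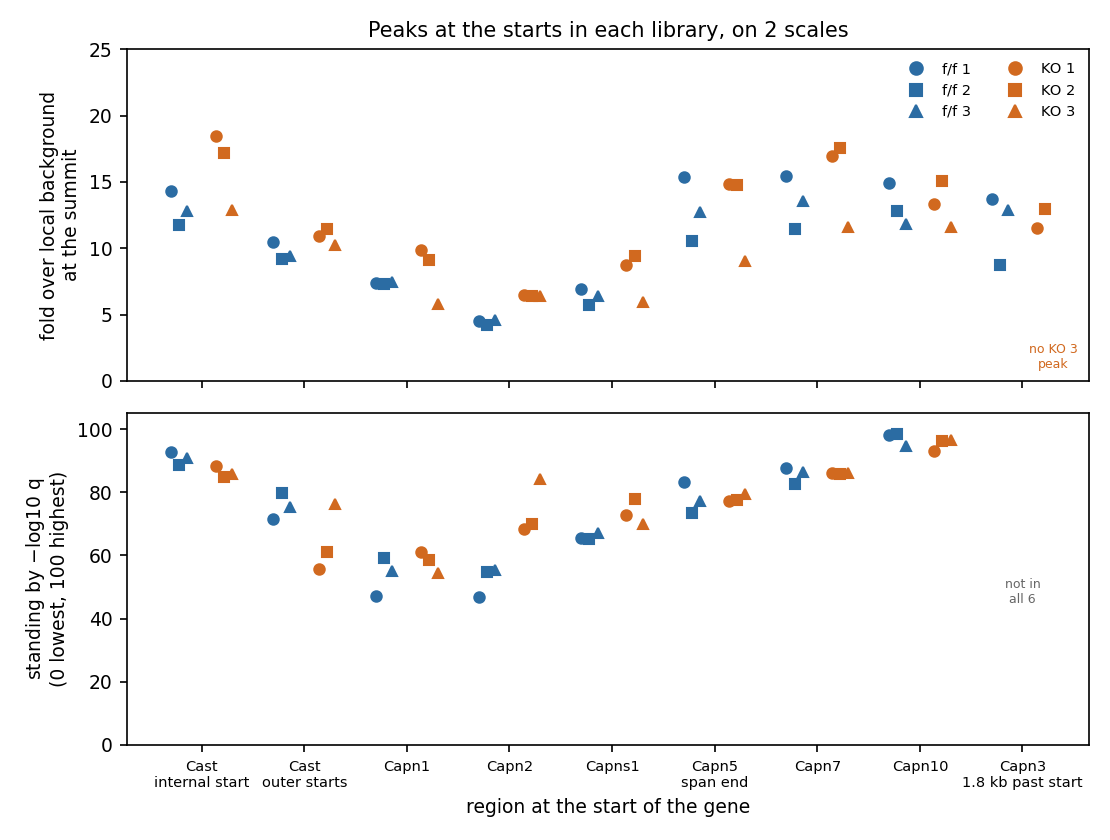
Fold over the local background at the summit (upper panel) and standing by −log10 q (lower panel, 0 lowest to 100 highest) of the region at each gene's start in each library, f/f in blue and KO in orange. The groups do not overlap at the *Capn2* start on either scale, and the *Cast* regions are lower in most KO libraries by −log10 q while their folds are not. The *Capn3* region has no KO replicate 3 peak and so no standing.

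**Figure D5:**
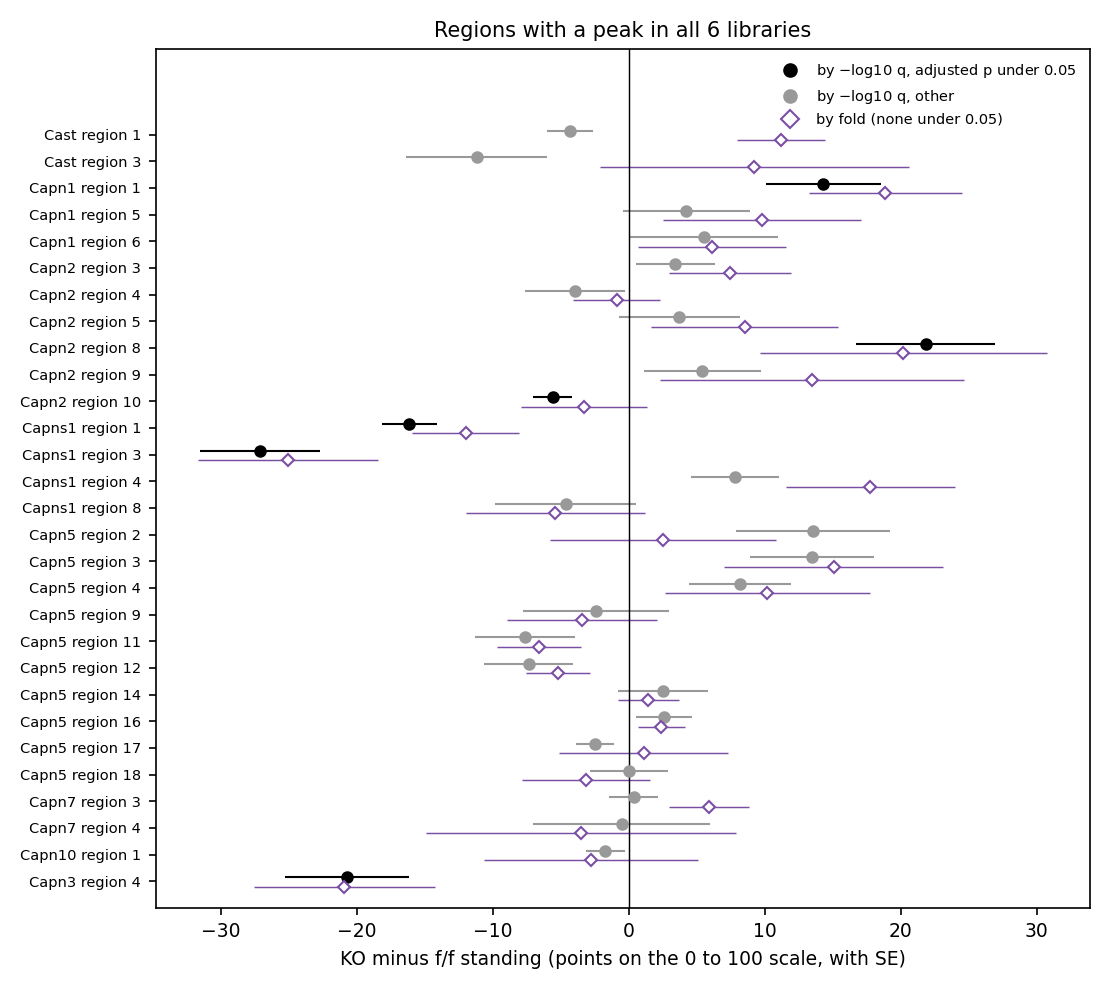
KO minus f/f standing with its SE for the 29 member regions shared by the 6 libraries, numbered in order of position within each gene's window. Circles are by −log10 q (black for an adjusted p under 0.05) and open diamonds by fold. Of the 29, 6 are black, and the *Cast* circles and diamonds lie on opposite sides of 0.

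The other 8 calpain genes were examined in the same way. They had 41 regions, of which 0 were f/f-only, 0 KO-only and 1, at *Capn15*, was called lower in KO by limma among the 14 with a peak in all 6 (11.3% of all shared regions were lower). Proteins of adhesions and the cytoskeleton that calpains cut were examined through *Tln1* (talin), *Sptan1* (αII-spectrin), *Flna* (filamin A), *Ptk2* (focal adhesion kinase), *Cttn* (cortactin), *Ezr* (ezrin), *Ctnnb1* (β-catenin) and *Vim* (vimentin). These 8 genes had 87 regions, with 1 f/f-only, at *Cttn*, and 0 KO-only. Of their 33 shared regions, 8 were called higher in KO and 3 lower, against 12.6% and 11.3% of all shared regions, with 4 of the calls at *Tln1* and 3 at *Flna*. All but *Cttn* had a start or span end under a region with a peak in all 6 libraries.

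*Cast* was also compared with all genes by its mean standing in the 6 libraries, which was 82.1, 84.1 and 83.0 in f/f and 72.1, 72.9 and 80.9 in KO. Among 7441 protein-coding genes with at least 3 shared regions, the nearest by Euclidean distance were *Sars2* (5.55 points), *Prmt1* (6.09) and *Rnf187* (6.53). *Cast* itself rests on 2 shared regions, and the likeness is a description over 6 libraries.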

How the data were processed

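ATAC-seq libraries of 3 f/f and 3 KO samples, grouped by the sample labels, were used. Per the labels and the methods, the authors trimmed reads, aligned them to mm10 with BWA and called peaks for each library separately (MACS2 2.1.2, q-value below 0.05). For each peak the deposited lists give a fold (a linear ratio over the local background at the summit), a −log10 q, and the summit position. How duplicate reads were treated is not given in the sources used here. The authors compared counts, which these lists do not hold, so presence and rank were compared.

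Peaks of the autosomes and sex chromosomes that shared 1 bp were joined. A region with several peaks of a library took the highest. Gene spans and start windows were from RefSeq GRCm38.p6, the coordinates of mm10, with no exons. Standings were fitted with limma 3.58.1 (R 4.3.3, trend) and Benjamini-Hochberg adjustment at 0.05, and region counts per library were compared by the exact permutation test (20 assignments). With the replicate block the counts were compared by sign flips over the pairs of same-numbered libraries. Python 3.11.15, pandas 2.3.3 and numpy 2.4.6 were used, and the steps were tested on simulated data.

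The members, gene lists, motifs and tests were chosen with earlier results of these data known. Regions named are those over or nearest a start, f/f-only or called regions, and each gene's region with the largest difference or the highest mean standing. Also tried were presence in 2 or more of 3 libraries, a −log10 q of 5 or more, equal numbers of peaks, an overlap of 50%, windows of 501 bp around summits, an extension of 3 kb, ranking by fold, a replicate block, and each library left out.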

Additional observations from a re-analysis of the deposited data

How the results depend on the processing

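The 3 f/f-only regions of calpastatin and the calpains became 6 of 61 with a peak required in at least 2 of 3 libraries, against 8.54% of all regions. They became 0 of 36 with each list shortened to the 32958 peaks of KO replicate 3, against 2.83%. By its construction that setting takes out the lower part of the f/f lists, where these peaks stood. The f/f-only regions numbered 3 to 5 when a library was left out. Without f/f replicate 1 they were 5 of 60, against 6.13% of all regions. KO-only regions stayed at 0 under all alternatives run. The 6 calls by limma became 3 with an extension of 3 kb, among the 22 shared regions that it takes in, against 23.9% of all shared regions. By fold they became 0, against 1.39%. The calls numbered 4 to 9 when a library was left out, where 13.5% to 22.5% of all shared regions were called. The 9 without KO replicate 3 were among 41 shared regions, against 22.5% of all, and took in *Cast*, *Capns1* and *Capn5* regions. The difference in regions with a peak per library stayed negative, from -13.7 without KO replicate 1 to -2.33 with equal numbers of peaks. Of 88 gene values under alternatives, 81 moved by less than the spread between replicates (the larger group SD) and 7 by more. With lists of equal length these were *Capn1*, *Capn2*, *Capn7*, *Capn10* and *Cast*. The others were *Capn2* with −log10 q of 5 or more and *Capn7* with 3 kb. Some of the 81 changed sign. The *Capn5* difference went from -0.667 to 1.67 without KO replicate 3 and to 0.667 without f/f replicate 3. The *Capn3* difference went from -0.667 to 0.333 without KO replicate 3. Correlations between same-numbered libraries, on standings less their group mean, were 0.068, -0.105 and -0.124. Those between differently numbered libraries of the 2 groups ran from -0.17 to 0.188. With 3 libraries per group these values cannot settle whether same-numbered libraries were handled together. With the replicate block the difference was -10.3 regions. An exact two-sided sign-flip test over the 3 same-numbered pairs gave p = 0.25, the smallest that 3 pairs allow. With that block limma called 5 regions, against 20.3% of all shared regions, without the *Capn1* region (adjusted p = 0.0758). The lists hold no read counts per region, so a missing peak is not a closed site.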
